A study of Mus musculus with 2 samples.

Results

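Neutrophils of tumor-bearing mouse liver were chosen by their transcripts from 2 single-cell RNA-Seq libraries. Cells entered with between 500 and 5000 genes detected and no more than 10% of UMIs from mitochondria (unique molecular identifiers, which count single transcripts). It was selected as a neutrophil when it held a UMI of at least 3 of the 7 genes *Retnlg*, *Csf3r*, *Cxcr2*, *Il1r2*, *G0s2*, *Hdc* and *Mmp9*, and fewer than 3 UMIs summed over *C1qa* and *C1qb* (macrophages), *Cd3e* (T cells) and *Cd79a* (B cells). This gave 3492 neutrophils of 31891 kept cells, 1110 of 15531 with PBS and 2382 of 16360 with anti–PD-1.

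Neutrophils are short-lived granulocytes that leave the bone marrow in response to G-CSF and follow CXCR2 ligands into inflamed tissue. They build their granules in sequence during maturation, so primary granule transcripts mark early precursors and secondary granule transcripts mark late precursors, while mature cells carry little of either. In tumors they can take on different programs, among them an interferon-stimulated state and a long-lived state with Siglec-F. Depending on the program they have been described as supporting or restraining T cell responses.

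In both groups, CCA had been induced by HDTVI (hydrodynamic tail vein injection) of plasmids for an active Notch receptor (NICD) and an active AKT kinase (myr-AKT). Both groups were shYT animals, in which doxycycline given from day 25 switched on shRNAs against *Yap1* and *Wwtr1*, driven through CAG-rtTA3 in all tissues and therefore not in tumor cells alone. The shYT_PBS group received PBS, in the shYT_antiPD1 group PD-1 was blocked by antibody injections (days 26, 29 and 32), and livers of both groups were analyzed on day 33. The sample labels give no age, sex, shRNA line or number of pooled animals for these libraries, and the study as a whole used mice of both sexes. A number of animals per group is stated for its maps of T cells, but not how these animals were placed in the libraries. With 1 library per group there was no replicate, no test and no p-value. Intervals are 95% intervals of the counting error alone.

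The neutrophils were shallower than the average cell. Their median depth was 1590.5 UMIs with PBS and 2017.0 with anti–PD-1, against 3159.0 and 2990.0 for all kept cells. They held 2153198 and 5684483 UMIs in all. The libraries shared 219 cell barcodes, 0 of them among neutrophils. The libraries also differed in sex-linked transcripts. *Xist*, the transcript of the inactive X chromosome, had 292 UMIs in PBS neutrophils and 0 in anti–PD-1 neutrophils, and 4 Y-linked genes had 115 and 1401. Treatment, sex of the animals and preparation cannot be told apart between the libraries. Values are therefore also given for the Y-linked sets, the 72 PBS and 863 anti–PD-1 neutrophils with a UMI of a Y-linked gene but none of *Xist*. Within the PBS library the Y-linked set was compared with the 178 cells that had *Xist* and no Y-linked UMI. A further 11 PBS neutrophils had both and 849 had neither, so a Y-linked UMI does not settle the animal of origin. The PBS Y-linked set held only 198877 UMIs, so ratios of low genes in the Y-linked sets rest on few UMIs.

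The label was checked on genes outside the gate. *S100a8*, a subunit of calprotectin that is abundant in neutrophils, was at 39525 CPM with PBS and 46739 CPM with anti–PD-1 (CPM are UMIs of the gene per 1e+06 UMIs of the summed neutrophils). *S100a9*, the other subunit, was at 27381 and 29059 CPM, so both subunits were close in the libraries. After thinning every cell to 1000 UMIs, *S100a8* was found in 97.2% and 95.6% of the neutrophils. It was also found in 8.26% and 29.8% of gated T cells, which should lack it. Free RNA and mixed barcodes cannot be told apart here. Of the markers of other cells, *Cd3d* was at 33.4 and 45.9 CPM, *Csf1r* at 170.9 and 135.6 CPM and *Apoe* at 2620 and 1584 CPM. *Apoe* UMIs were also found in 73.2% and 64.4% of the T cells. The 7 eosinophil markers summed to 23.7 and 18.1 CPM, with 3 of them at 0 in the PBS library. The 6 basophil and mast cell markers summed to 6.50 and 26.0 CPM.

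The gate did not enter the same cells in both libraries. All 7 gate genes were detected in 11.5% of PBS neutrophils and in 41.4% of anti–PD-1 neutrophils, and exactly 3 in 14.1% and 5.58%. Just inside the limit, PBS cells with 3 gate genes had 25404 CPM of *S100a8*, but anti–PD-1 cells with 3 gate genes had 3420 CPM. Just outside it, cells with 2 gate genes had 3443 and 513 CPM. *S100a8* and *S100a9* together made up less than 1% of the UMIs in 132 PBS cells (11.9%) and 312 anti–PD-1 cells (13.1%). These cells are part of all values below unless they are said to be left out.

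**Figure D1:**
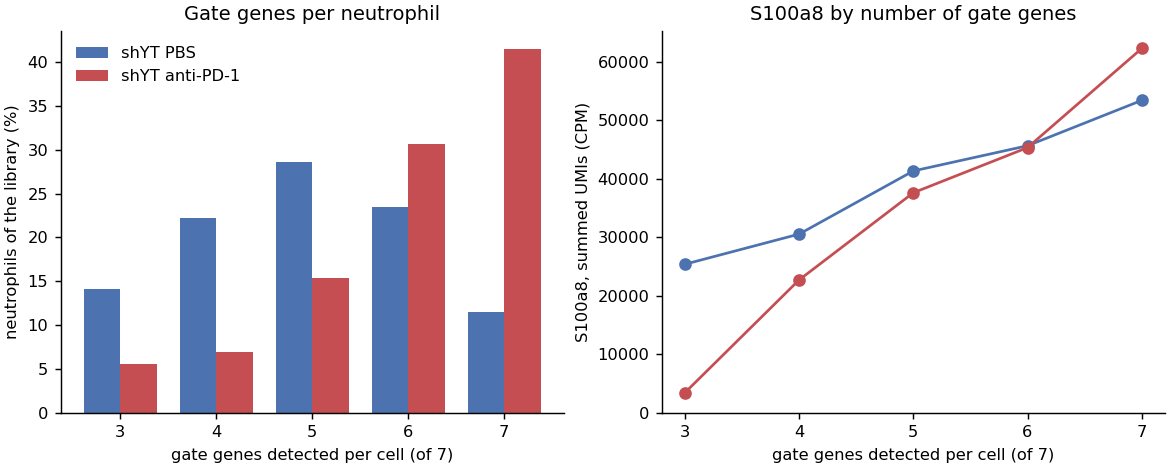
Left, percent of each library's neutrophils by the number of gate genes detected per cell. Right, *S100a8* in CPM of the summed UMIs of those cells. PBS cells peak at 5 gate genes and anti–PD-1 cells at 7 (41.4%), and the *S100a8* levels differ most at 3 gate genes, 25404 against 3420 CPM.

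The neutrophil share was 7.15% (6.75 to 7.56) with PBS and 14.6% (14.0 to 15.1) with anti–PD-1. The difference was 7.41 percentage points (6.73 to 8.09), or 2.04-fold. Its size rested on the exclusion of other lineages. The 4 exclusion genes removed 262 PBS cells, 19.1% of those with 3 or more gate genes, and 1475 anti–PD-1 cells, 38.2% of them. Of the removed cells, 233 and 1358 had a *C1qb* UMI, and 18 and 412 had all 7 gate genes. Without the exclusion, chosen as an alternative after the data were seen, the shares were 8.83% and 23.6%. With a stricter exclusion over 14 more genes they were 4.86% and 7.62%, a difference of 2.76 points. A share also depends on the other cells of its library. With epithelial and stromal cells left out of both counts, the shares were 9.53% and 16.6%, or 1.74-fold. The share was higher in the anti–PD-1 library with every gate tried, by 1.57-fold to 2.80-fold. All of these gates counted the same 7 genes, of which *G0s2*, *Il1r2* and *Hdc* were higher with anti–PD-1. Cells of that library could thus pass more easily, so the agreement of the gates does not test the difference.

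The gate genes themselves are given as a description, since they chose the cells. *G0s2*, an inhibitor of triglyceride lipase (ENSMUSG00000009633, mm10 chromosome 1, 193272161 to 193273217, reverse strand), was at 792.3 CPM in PBS and 3726 CPM in anti–PD-1 neutrophils. *Il1r2*, the decoy receptor for IL-1, was at 1031 and 3035 CPM. *Hdc*, which makes histamine, was at 862.0 and 1965 CPM. The other 4 genes were lower over all neutrophils of the anti–PD-1 library, but in the Y-linked sets *Retnlg* (0.18) and *Csf3r* (0.07) were above 0. *Retnlg*, a resistin-like peptide of neutrophils, was at 5093 and 4425 CPM. *Csf3r*, the G-CSF receptor, was at 2637 and 2242 CPM. *Cxcr2*, the receptor that leads neutrophils to CXCL1 and CXCL2, was at 1918 and 1405 CPM, and *Mmp9*, a gelatinase, at 1553 and 1074 CPM. *G0s2* differed more than any other gate gene, with a log2 ratio of 2.23 (2.16 to 2.30). In the Y-linked sets it was 2.20, and between the Y-linked and *Xist* sets of the PBS library it was 1.29.

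**Figure D2:**
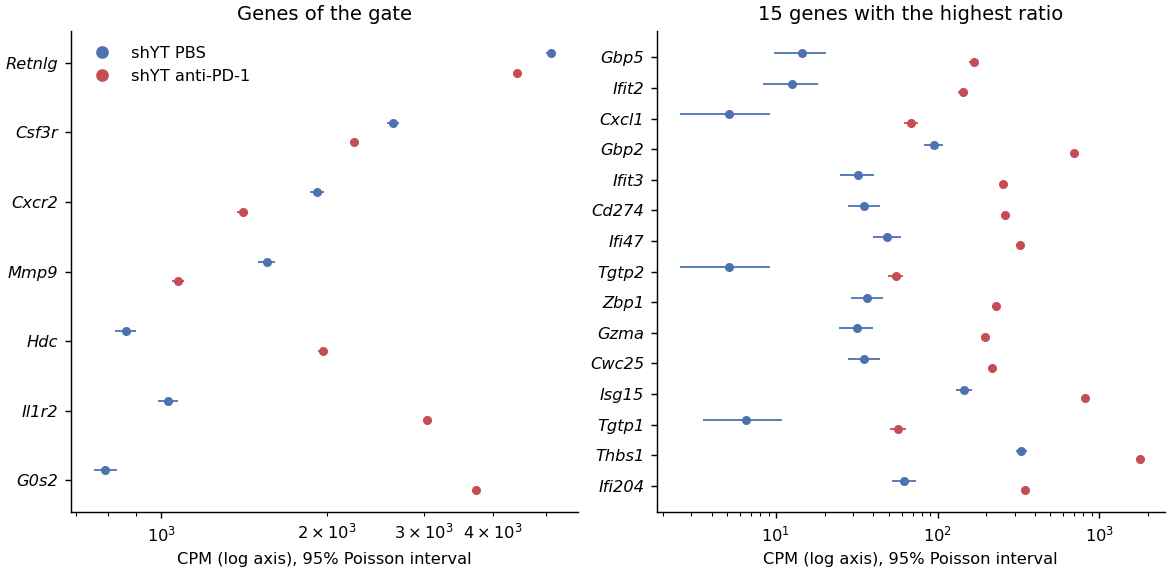
CPM of the summed neutrophils in each library on a log axis, with 95% Poisson intervals. Left, the 7 gate genes, of which *G0s2*, *Il1r2* and *Hdc* lie higher with anti–PD-1. Right, the 15 genes with the highest ratio, each higher with anti–PD-1, from *Gbp5* (14.4 and 167.5 CPM) to *Ifi204* (62.2 and 348.8 CPM).

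The transcriptome of the summed neutrophils was compared next. Ratios are anti–PD-1 over PBS on log2(CPM + 5), so ratios of low genes are understated. Of 6309 genes with 20 CPM in either library, 217 (3.44%) were 2-fold or more higher and 362 (5.74%) were 2-fold or more lower. The median over all of them was −0.27. A gene under 20 CPM in 1 library entered only through the library where it was higher, so the filter fixed its direction. The counts are not equally firm. Of the lower genes, 88 (24.3%) had most of their UMIs in 5 or fewer cells, against 3 (1.38%) of the higher ones. Without the 5 cells richest in each gene, an alternative chosen after the data were seen, 250 genes were higher and 216 lower. With median-ratio scaling, 293 were higher and 217 lower, so the excess of lower genes depends on the scaling.

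**Figure D3:**
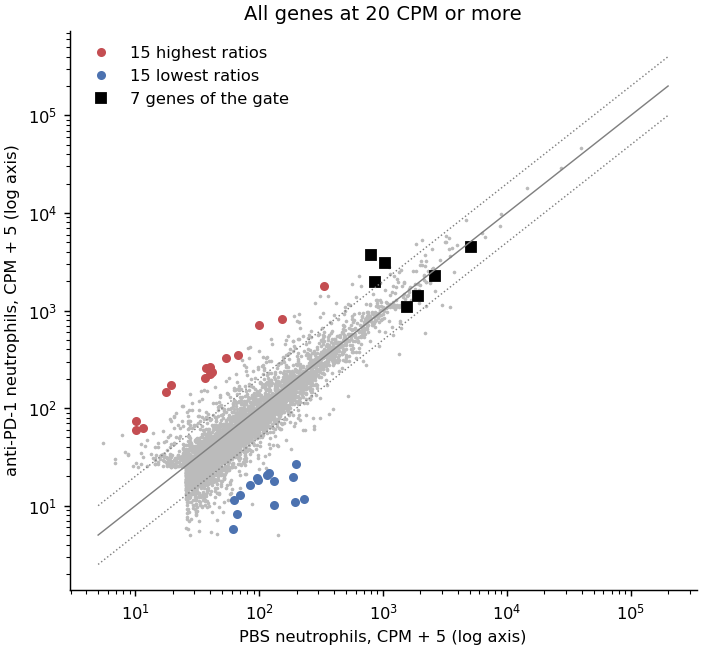
Each point is 1 of the 6309 genes, with CPM + 5 in PBS neutrophils on the x axis and in anti–PD-1 neutrophils on the y axis, both logarithmic. Dotted lines mark 2-fold, and the 15 highest and 15 lowest ratios lie well outside them, while 4 of the 7 gate genes lie just below the diagonal.

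Interferon-stimulated genes led the higher side. The 15 genes with the highest ratio, among those with 50 CPM in either library, were *Gbp5*, *Ifit2*, *Cxcl1*, *Gbp2*, *Ifit3*, *Cd274*, *Ifi47*, *Tgtp2*, *Zbp1*, *Gzma*, *Cwc25*, *Isg15*, *Tgtp1*, *Thbs1* and *Ifi204*. *Gbp5*, a guanylate-binding protein that supports inflammasomes (ENSMUSG00000105504, chromosome 3, 142493978 to 142522344, forward strand), was at 14.4 CPM with PBS and 167.5 CPM with anti–PD-1. Its log2 ratio was 3.15 (2.75 to 3.55), and 1.79 (0.92 to 2.77) in the Y-linked sets. *Ifit2*, which binds foreign RNA, was at 12.5 and 142.8 CPM, a ratio of 3.08 (2.66 to 3.49), and 2.09 in the Y-linked sets. Both *Gbp5* and *Ifit2* were under 20 CPM with PBS and entered only through anti–PD-1, so the filter fixed their direction. *Gzma*, a granzyme of NK and T cells, was at 31.6 and 197.6 CPM, but most of its UMIs lay in 2 PBS and 6 anti–PD-1 cells, and its ratio of 2.47 was 0.42 in the Y-linked sets.

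All 14 measured type I interferon-stimulated genes were higher in the anti–PD-1 library, 13 of them past 2-fold, against 3.44% of all genes. The median log2 ratio was 1.85, against −0.27 over all genes. Any member under 20 CPM with PBS entered only through anti–PD-1, so the filter fixed its direction. This and the other lists were chosen with earlier results of these data known. List counts and medians beside the values over all genes are therefore a description only. *Isg15*, a ubiquitin-like modifier, was at 146.8 and 815.7 CPM. *Slfn4*, which is found in immature myeloid cells, was at 553.1 and 1862 CPM. *Ifitm3*, which blocks the entry of viruses, was at 659.0 and 1759 CPM. *Rsad2*, the antiviral enzyme viperin, was at 76.2 and 409.4 CPM, and *Irf7*, the factor that amplifies type I interferon, at 67.8 and 307.2 CPM. The smallest ratio in the list was that of *Usp18*, the brake on the interferon receptor, with 0.92 (0.54 to 1.30) on 22.3 and 46.6 CPM.

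Genes of the interferon-γ response gave a similar picture. All 19 measured genes were above 0, 14 past 2-fold, against 3.44% of all genes. The median was 1.59, against −0.27 over all genes. Here too, the filter fixed the direction of any member under 20 CPM with PBS. *Gbp2* was at 94.7 and 704.0 CPM. *Irf1*, an early interferon-induced transcription factor, was at 200.2 and 511.6 CPM. *Irgm1* and *Igtp*, immunity-related GTPases, were at 77.6 and 324.4 CPM and at 70.1 and 273.7 CPM. Among the 5 genes within 2-fold were the immunoproteasome gene *Psmb8*, at 308.4 and 497.7 CPM, and the factor *Irf8*, at 57.1 and 61.6 CPM, though its ratio of 0.10 was 2.00 in the Y-linked sets. The medians in the Y-linked sets were 2.09 for the type I list and 1.59 for the interferon-γ list.

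The promoters of 4 of these genes are shown because they carry the motifs of interferon signaling. The motifs searched were the core of the interferon-stimulated response element (ISRE, 2 copies of GAAA with any 2 bases between them), which binds the ISGF3 complex and IRF factors, and the gamma-activated site (GAS, TTCNNNGAA), a motif of the interferon-γ response. Both strands were searched, and the motifs may overlap each other. Sequences are RefSeq windows of 300 bases around the gene start in RefSeq (GRCm38.p6), 5′ to 3′ on the strand of the gene, with motif matches in capitals. The *Gbp5* window starts inside the gene as given above, since RefSeq and GENCODE place its start differently. The windows lie at chr3:142496684-142496983 (*Gbp5*, forward), chr3:142620413-142620712 (*Gbp2*, forward), chr19:34583279-34583578 (*Ifit3*, forward) and chr4:156200769-156201068 (*Isg15*, reverse).
Gbp5: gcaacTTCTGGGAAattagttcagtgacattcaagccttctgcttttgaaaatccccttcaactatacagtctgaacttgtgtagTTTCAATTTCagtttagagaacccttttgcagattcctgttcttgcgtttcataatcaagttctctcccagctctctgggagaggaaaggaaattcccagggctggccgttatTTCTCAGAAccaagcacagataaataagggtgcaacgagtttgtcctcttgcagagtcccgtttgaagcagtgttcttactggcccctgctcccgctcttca
Gbp2: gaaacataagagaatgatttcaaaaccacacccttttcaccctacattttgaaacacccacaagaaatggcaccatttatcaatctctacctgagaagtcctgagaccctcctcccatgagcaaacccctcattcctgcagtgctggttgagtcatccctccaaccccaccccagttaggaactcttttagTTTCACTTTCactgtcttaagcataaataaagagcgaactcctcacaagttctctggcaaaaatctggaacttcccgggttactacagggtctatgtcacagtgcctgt
Ifit3: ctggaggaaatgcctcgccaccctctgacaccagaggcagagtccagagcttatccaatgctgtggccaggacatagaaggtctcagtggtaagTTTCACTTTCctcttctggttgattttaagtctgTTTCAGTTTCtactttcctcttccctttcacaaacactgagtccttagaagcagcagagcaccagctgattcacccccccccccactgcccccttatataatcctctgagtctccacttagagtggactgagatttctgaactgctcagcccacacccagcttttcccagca
Isg15: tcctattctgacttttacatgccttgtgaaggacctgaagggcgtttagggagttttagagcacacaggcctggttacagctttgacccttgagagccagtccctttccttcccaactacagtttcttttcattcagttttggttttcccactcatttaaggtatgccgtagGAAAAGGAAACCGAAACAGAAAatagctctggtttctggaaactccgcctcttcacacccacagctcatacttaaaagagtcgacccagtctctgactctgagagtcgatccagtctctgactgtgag

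An ISRE core was found in 7 of the 12 genes with a window among the 15 with the highest ratio (58.3%), in 5 of 12 type I genes (41.7%) and in 9 of 16 interferon-γ genes (56.2%). Over all 27025 genes with a window the share was 3.99%. *Gbp5* had 1 ISRE core and 2 GAS matches, *Gbp2* had 1 ISRE core, *Ifit3* had 2, and *Isg15* had 3, which overlap. A GAS match was found in 6 of the 16 interferon-γ genes (37.5%), against 9.55% of all genes, but also in 3 of 11 NF-kB feedback genes (27.3%) and 3 of 15 neutrophil identity genes (20%). None of the 11 NF-kB feedback genes with a window held the ISRE core, and the windows of *Cd274* and *G0s2* held neither motif. A match is a description of the letters in the window and not of binding.

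The interferon program was not spread evenly over cells. For equal depth, cells were thinned to 1000 randomly drawn UMIs, which left out 102 PBS and 88 anti–PD-1 neutrophils. Of the rest, 27.4% (24.6 to 30.2) with PBS and 58.1% (56.1 to 60.1) with anti–PD-1 held 3 or more UMIs of the type I list. Without thinning, the shares were 42.2% and 74.9%. In other gated cells, thinned in the same way, they were 40.8% and 72.4% (monocytes), 14.2% and 44.4% (macrophages) and 2.06% and 5.55% (T cells). Within the anti–PD-1 library, cells with 3 or more such UMIs had 1105 CPM of *Gbp2*, against 87.4 CPM in the other cells. *Wfdc17*, which codes for a WAP domain protein of activated myeloid cells, was at 1514 CPM in the interferon-high and 629.6 CPM in the other anti–PD-1 cells, and at 4207 and 1937 CPM in the PBS cells split the same way. The limit of 3 UMIs cuts a graded count, with medians of 1 UMI (PBS) and 4 UMIs (anti–PD-1) per thinned cell. The split into interferon-high and interferon-low cells therefore cannot show whether there are separate states. *S100a8* in the anti–PD-1 cells was at 49807 CPM in the interferon-high and 49009 CPM in the interferon-low cells, and in the PBS cells at 53344 and 39566 CPM.

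*Cd274*, the gene of PD-L1 (ENSMUSG00000016496, chromosome 19, 29367455 to 29388095, forward strand), was at 35.3 CPM in PBS and 260.9 CPM in anti–PD-1 neutrophils. The log2 ratio was 2.72 (2.43 to 3.03), and 3.02 in the Y-linked sets. A *Cd274* UMI was found in 2.98% (2.02 to 4.22) and 16.6% (15.1 to 18.2) of the thinned cells. In gated T cells, with median depths of 2678.0 and 3260.0 UMIs before thinning, the shares were 2.78% and 6.10%, so the PBS share was close to that of T cells and the anti–PD-1 share was above it. In anti–PD-1 neutrophils with a *Cd274* UMI, *Gbp5* was at 689.5 CPM, against 74.2 CPM in those without. *Irf1* was at 1182 and 400.7 CPM. In the 30 PBS cells with a *Cd274* UMI, *Irf1* was at 766.7 CPM, against 194.3 CPM in the others, on 23 and 190 UMIs. *Irf1* was thus higher in positive cells of both libraries.

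The 10 measured genes of the list on T cell regulation had a median of 0.10, against −0.27 over all genes. Past 2-fold, 3 were higher and none was lower, against 3.44% and 5.74% of all genes. Besides *Cd274* these were *Ptgs2*, the prostaglandin synthase COX-2, at 159.8 and 492.7 CPM, and *Arg2*, which breaks down arginine, at 242.9 and 511.9 CPM. *Vsir*, the gene of VISTA, was at 431.5 and 305.0 CPM, and *Tgfb1* at 135.6 and 112.1 CPM. *Cd80*, a ligand of CD28 and CTLA-4, was at 110.5 and 211.5 CPM. Of the 10 genes, 5 were above 0 and 5 below. The median was 0.85 in the Y-linked sets, and *Arg2*, with a ratio of 1.06, had 0.67 without the lineage exclusion.

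**Figure D4:**
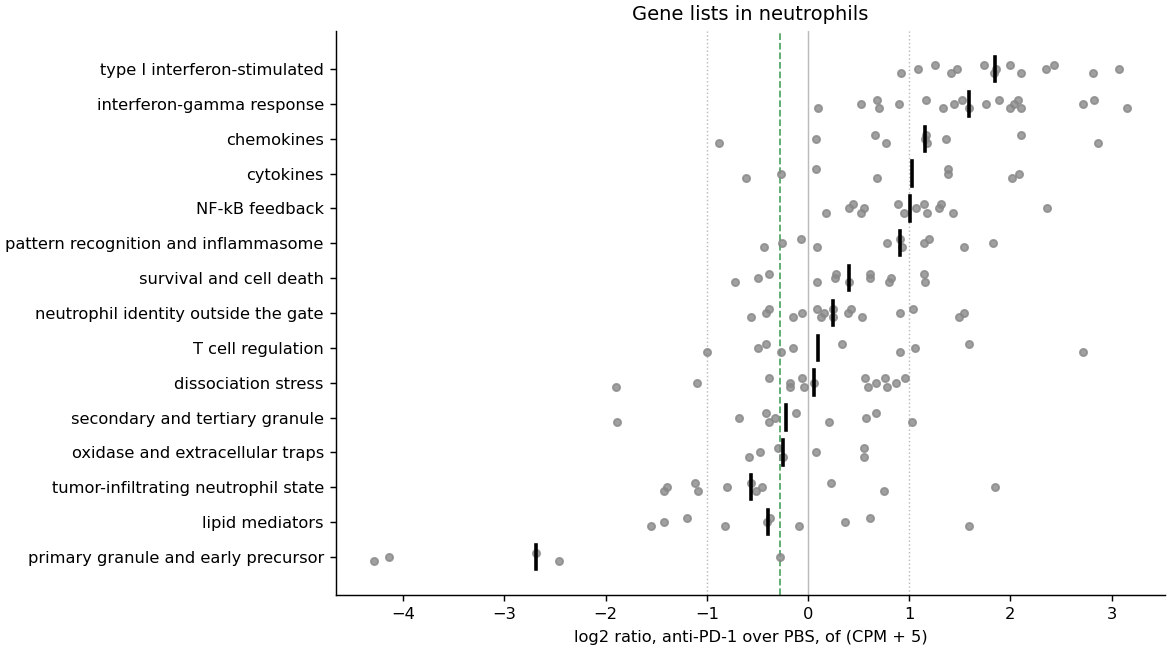
Log2 ratios of anti–PD-1 over PBS neutrophils for the measured genes of 15 lists (gray points) and the list medians (black bars). Dotted lines mark 2-fold and the dashed green line the median of all genes (−0.27). The type I interferon list has the highest median (1.85), and the primary granule list the lowest (−2.69), which rests on very few cells.

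Inflammatory mediators were compared by role. Among cytokines, 4 of 8 measured genes were past 2-fold higher and none was past 2-fold lower (median 1.03), against 3.44% higher and 5.74% lower over all genes. *Il1b*, the main pyrogenic cytokine of neutrophils, was at 1848 and 4814 CPM, a log2 ratio of 1.38 (1.33 to 1.43). It was found in 63.0% and 89.2% of thinned cells, against 1.00% and 6.73% of T cells. *Osm*, a cytokine of the IL-6 family, was at 108.7 and 291.5 CPM. *Il1a* and *Il23a* were low, at 3.25 and 30.1 CPM and at 1.86 and 22.7 CPM. Both reached 20 CPM only with anti–PD-1, so their calls among the 4 were fixed by the filter. *Tnf* was at 77.6 and 82.0 CPM, with a ratio of 0.08 (−0.17 to 0.32), a difference that this depth could not separate from 0. *Csf1*, the macrophage growth factor, was lower, at 238.7 and 153.9 CPM.

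Among chemokines, 6 of 10 were past 2-fold higher and none was past 2-fold lower (median 1.16), against 3.44% and 5.74% of all genes. The attractant of neutrophils *Cxcl2* was at 2478 and 4230 CPM, a ratio of 0.77 (0.73 to 0.81). With at least 5 gate genes, the chemokine median was 0.70 and the *Cxcl2* ratio 0.53. In the Y-linked sets they were 1.45 and 1.05. *Cxcl1*, which acts on the same receptor, was at 5.11 and 68.6 CPM, with most UMIs in 5 PBS and 17 anti–PD-1 cells. It reached 20 CPM only with anti–PD-1, so its call was fixed by the filter. *Cxcl10*, which attracts T cells through CXCR3, was at 30.7 and 148.5 CPM, a ratio of 2.11, but 0.44 in the Y-linked sets. *Ccl4*, an inflammatory chemokine, was at 248.9 and 559.2 CPM, a ratio of 1.15 that was 0.62 with the stricter lineage exclusion, while *Ccl3*, a related chemokine, was at 433.3 and 233.3 CPM. In the Y-linked sets the *Ccl3* ratio was 0.71 instead of −0.88. Cells with 3 or more UMIs of *Ccl3* and *Ccl4* made up 9.13% (7.42 to 11.1) and 6.76% (5.76 to 7.86). These cells also had more *Cxcl2* than the others, with 5717 against 2583 CPM (PBS) and 11748 against 4052 CPM (anti–PD-1).

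Next came NF-kB subunits and genes that NF-kB is known to induce, among them its own inhibitors. All 14 were above 0, and 7 were past 2-fold higher (median 1.01), against 3.44% of all genes. The inhibitor *Nfkbia* was at 1131 and 2376 CPM, *Nfkbiz* at 220.6 and 546.8 CPM and *Tnfaip3* at 60.8 and 333.5 CPM. Of 11 genes of pattern recognition and the inflammasome, 4 were past 2-fold higher and none lower (median 0.91). Over all genes the shares were 3.44% and 5.74%. *Cd14*, the coreceptor for LPS, was at 635.8 and 2273 CPM, *Nlrp3* at 184.4 and 429.6 CPM, and *Trem1*, an amplifying receptor, at 320.0 and 940.1 CPM. *Tlr4*, the LPS receptor, was at 111.5 and 81.1 CPM, a ratio of −0.44 that was 0.41 in the Y-linked sets. Of 10 genes of G-CSF and GM-CSF signaling, 8 were below 0, with a median of −0.30, against −0.27 over all genes. Most genes were thus below 0, and the list median lay close to theirs. Past 2-fold, 1 of the 10 was higher, against 3.44% of all genes. This was *Cebpb*, a factor of emergency granulopoiesis, at 2037 and 5325 CPM, while *Cebpd*, its relative, was at 523.9 and 336.9 CPM.

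Genes were also ranked by the share of thinned cells that held a UMI, a ranking added after the data were seen. *G0s2*, a gate gene and so a description only, had 29.3% of PBS cells and 81.5% of anti–PD-1 cells. It was followed by *Thbs1*, an extracellular matrix glycoprotein, with 11.1% and 51.4%, and by the factor *Ets2*, with 17.4% and 56.9%. For *Thbs1* the CPM was 330.7 with PBS, 27.4% of it from a single cell, and 1795 with anti–PD-1. *Nr4a1*, an immediate early gene of activated cells, was found in 18.8% and 55.7% of neutrophils, and in 7.22% and 32.0% of T cells. *Plaur*, the urokinase receptor, was found in 25.8% and 61.6%.

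On the other side of that ranking, *Jun*, a subunit of AP-1, was found in 54.4% of PBS and 20.97% of anti–PD-1 cells. Its CPM was 1335 and 353.6, a log2 ratio of −1.90 (−1.98 to −1.82). The ratio was −1.17 in the Y-linked sets and −0.72 without the lineage exclusion. It was −0.57 in gated monocytes, 0.38 in gated macrophages and 0.13 in gated T cells. Of the 15 genes of the dissociation stress list, 8 were above 0 and 7 below, with a median of 0.06. Past 2-fold, 2 of them were lower and none was higher, against 5.74% and 3.44% of all genes. *Ier3*, an immediate early gene, was the other one past 2-fold lower, at 919.1 and 425.5 CPM, with a ratio of −1.10, or −0.46 in the Y-linked sets. *Fos*, the partner of *Jun*, was at 2213 and 1954 CPM and *Junb* at 2183 and 3703 CPM. *Igfbp6*, a binding protein of IGF-II, was found in 23.1% and 3.97% of neutrophils and in 0.750% and 0.444% of T cells, with a ratio of −2.06, or −0.94 in the Y-linked sets. *Gcnt1*, an enzyme that builds ligands for selectins, was found in 21.9% and 4.71%, with a ratio of −1.94 (−2.13 to −1.74), or −1.44 in the Y-linked sets. *Spp1* and *Cmss1* also ranked low, but their shares in T cells (61.9% and 39.6%, 74.7% and 46.4%) were also lower. The *Spp1* ratio was −1.39, and −0.40 in the Y-linked sets.

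**Figure D5:**
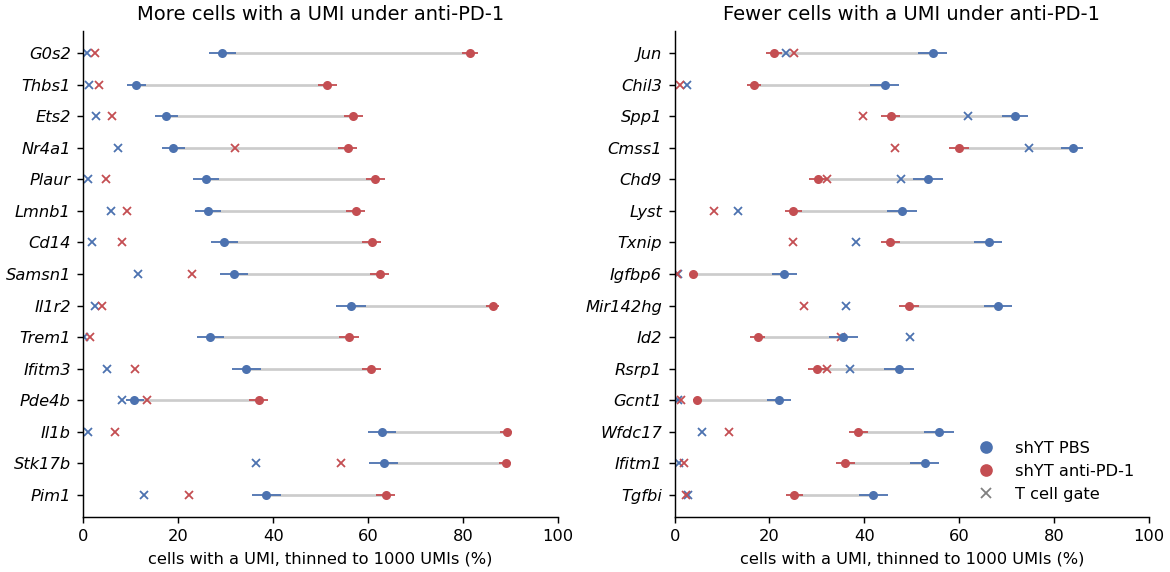
Percent of neutrophils with a UMI of each gene after thinning to 1000 UMIs per cell, with 95% Clopper-Pearson intervals. Circles are neutrophils of the PBS and anti–PD-1 libraries and crosses gated T cells. *G0s2* has the widest gap (29.3% and 81.5%), and the crosses of *Spp1* and *Cmss1* lie near the circles.

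*Chil3*, a chitinase-like protein of maturing and alternatively activated myeloid cells, was at 2189 and 586.5 CPM, a log2 ratio of −1.89 (−1.96 to −1.83), and was found in 44.2% and 16.7% of cells. The ratio was as low in the other gated cells, −1.98 in monocytes, −2.32 in macrophages and −1.79 in T cells. The difference was not seen in the Y-linked sets, where the ratio was −0.03 (−0.25 to 0.21). Within the PBS library the Y-linked set was lower than the *Xist* set by a similar amount, −1.66. The ratio also differed by set for *Ifitm1*, with −0.70 over all neutrophils and 0.85 in the Y-linked sets, and for *Wfdc17*, at 2205 and 1103 CPM over all neutrophils and with a ratio of 0.48 in the Y-linked sets. In monocytes, macrophages and T cells the ratio was 2.36, 0.39 and 0.39 for *Ifitm1* and −0.55, 0.73 and 1.16 for *Wfdc17*. For these 3 genes, as for all others, the sex or animal of origin and the treatment cannot be told apart.

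Maturation genes were examined by granule class. Of the secondary and tertiary granule genes, *Lcn2*, which binds siderophores, was at 2399 and 1918 CPM, and *Mmp8*, a collagenase, at 323.7 and 519.5 CPM. *Camp*, *Ngp* and *Ltf*, which mark late precursors, came from few cells. With 3 or more of their UMIs there were 12 thinned PBS cells (1.19%, 0.617 to 2.07) and 21 thinned anti–PD-1 cells (0.915%, 0.568 to 1.40). These cells had 20833 and 24952 CPM of *Retnlg* and 100250 and 128429 CPM of *S100a8*. The primary granule genes *Elane* (neutrophil elastase) and *Mpo* (myeloperoxidase) had the 2 lowest ratios of all ranked genes, −4.29 and −4.14. However, 99.8% and 99.3% of their PBS UMIs came from a single cell. Any of *Elane*, *Mpo*, *Prtn3* or *Ctsg* was found in 2.48% and 2.31% of thinned cells, with intervals that overlap (1.61 to 3.64 and 1.74 to 3.01). In T cells it was 0.313% and 1.48%.

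The other 13 of the 15 genes with the lowest ratios were *Eln*, *Nts*, *Tagln*, *Tnc*, *Mgp*, *Ccn2*, *Col4a2*, *Alb*, *Fabp4*, *Perp*, *Igfbpl1*, *Nsun6* and *Prtn3*. *Eln*, the gene of elastin, was at 125.4 and 5.10 CPM, and *Tagln*, a smooth muscle gene, at 182.1 and 14.6 CPM, in both cases with most PBS UMIs in 1 cell. *Perp*, *Igfbpl1* and *Nsun6* were spread more widely, over at least 22 PBS cells for 50% of their UMIs. Summed markers of tumor and biliary epithelium were at 3733 and 1426 CPM, and those of hepatocytes at 204.4 and 103.6 CPM. The 5 fibroblast markers had a median log2 ratio of −1.22, with 4 past 2-fold lower, against 5.74% of all genes. Their median was −0.48 without the lineage exclusion and −2.44 with 2 gate genes. Markers of Kupffer cells went the other way, with 145.8 and 379.6 CPM, and a UMI of them was found in 12.8% and 32.5% of thinned neutrophils. Markers of NK cells were at 182.1 and 432.6 CPM. These levels differed in the same direction as the interferon and chemokine genes, and their part in those differences was not tested. The part of such RNA in these genes was not tested.

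The tumor-infiltrating neutrophil list had a median of −0.56, against −0.27 over all genes. Past 2-fold, 1 of 11 genes was higher and 4 were lower, against 3.44% and 5.74% of all genes. After thinning, 73.6% and 49.5% of neutrophils held 3 or more UMIs of the list. In gated T cells the shares were 38.2% and 26.6%, so the list is not particular to neutrophils. *Siglecf*, the receptor that gives Siglec-F neutrophils their name, was at 77.1 and 32.9 CPM and was found in 7.94% (6.34 to 9.78) and 2.31% (1.74 to 3.01) of the thinned cells. In T cells it was found in 0.094% and in 0%. The log2 ratio was −1.12 (−1.39 to −0.84), and −0.63 (−1.50 to 0.34) in the Y-linked sets, where no difference was detectable at this depth. With 5 gate genes it was −0.50. The PBS cells with *Siglecf* had 862.5 CPM of *Retnlg*, against 5888 CPM in those without, and 137.5 against 22.6 CPM of *Ltc4s*, the leukotriene C4 synthase. In the anti–PD-1 library *Retnlg* was at 2151 against 4595 CPM. There *Ltc4s* had 0 UMIs in the 53 thinned cells with *Siglecf* and was at 12.9 CPM in the others. That level is too low for a difference to show in so few cells. Both *Ltc4s* and the lysosomal gene *Ctsd* were lower in the anti–PD-1 library, at 33.0 and 9.15 CPM and at 1351 and 774.6 CPM. The *Ltc4s* ratio of −1.42 was −0.35 without the lineage exclusion. *Ltc4s* reached 20 CPM only with PBS, so the filter fixed its direction. *Nfil3*, a factor of the same list, was instead higher, at 122.1 and 452.8 CPM, and *Vegfa* was at 30.7 and 55.1 CPM.

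Other equipment of mature neutrophils was compared by role. None of the 7 genes of the oxidase and of extracellular traps was past 2-fold, against 3.44% of all genes higher and 5.74% lower. *Cybb*, the catalytic subunit of the NADPH oxidase, was at 149.5 and 222.2 CPM, and *Padi4*, which citrullinates histones in extracellular traps, at 114.7 and 74.8 CPM. Of 13 genes of survival and cell death, 2 were past 2-fold higher, against 3.44% of all genes. They were the kinase *Pim1* (513.2 and 1151 CPM) and *Casp1* (42.7 and 101.0 CPM). The survival factor *Mcl1* was at 1466 and 1943 CPM. Among lipid mediators, *Ptgs1* and *Ltb4r1*, the receptor for leukotriene B4, were lower, at 92.4 and 28.3 CPM and at 90.1 and 36.4 CPM, while *Ptgs2* was higher. In the Y-linked sets the *Ltb4r1* ratio was 0.09 instead of −1.20 and the *Ptgs1* ratio −0.79 instead of −1.55. Without the lineage exclusion the *Ptgs1* ratio was −0.07. None of the 6 measured genes of the cell cycle list was past 2-fold, against 3.44% of all genes higher and 5.74% lower. So few genes cannot be told from those shares. *Mki67* was at 57.6 and 45.4 CPM.

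The same lists were read in other cells of the 2 libraries, gated by their own markers. The type I list had a median of 1.41 in monocytes (261 and 116 cells), 1.61 in macrophages (5236 and 4449 cells) and 0.81 in T cells (3251 and 2771 cells), against 1.85 in neutrophils. The interferon-γ list had 1.47, 1.58 and 0.42 there, against 1.59. The chemokine list had 1.03, 1.18 and 1.23, against 1.16, and the cytokine list 0.76, 1.07 and 0.37, against 1.03. The NF-kB feedback list had 0.33, 1.02 and 0.65, against 1.01. The dissociation stress list had 0.95, 1.23 and 0.67, against 0.06 in neutrophils. These comparisons share the 2 libraries, and the differences between cell types were not tested.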

How the data were processed

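Single-cell RNA-Seq was done by the authors with a Singleron kit on digested livers after red cell lysis and removal of debris and dead cells. Reads were mapped to mm10 with the manufacturer's software, and the submitters' processing notes also name Seurat 4.3. Software version, gene annotation and strand setting were not given in the sources used here. The deposited files hold raw UMI counts per gene and cell, 1 library per group, with 19397 and 19451 barcodes.

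From these counts, cells were filtered and gated as described above, and UMIs were summed over the neutrophils of each library. CPM carry 95% exact Poisson intervals and shares of cells 95% Clopper-Pearson intervals, which cover counting error only. Ratios are log2(CPM + 5) differences over genes with 20 CPM in either library. Shares were compared after thinning each cell to 1000 UMIs (seed 7), leaving out shallower cells. Named genes were the 15 highest and 15 lowest ratios at 50 CPM or more without sex-linked, mitochondrial, receptor-segment and unnamed gene models. The 10 highest levels, the gate genes and members of the lists were also named. The members and lists were chosen with earlier results of these data known, so list counts beside the shares over all genes are no test. No doublet caller was run, and the lineage exclusion also removes mixed barcodes. *Il36g*, *Mx1*, *Clec7a* and some other items are not reported here. Coordinates are from GENCODE M21, in which 32522 of 32589 gene IDs were found, and promoter windows from RefSeq.

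Alternatives changed the gene and mitochondrial limits, the gate, the lineage exclusion, the pseudocount, the filter, the scaling and the weight of cells. Leaving out the exclusion, cells low in *S100a8* and *S100a9*, or the 5 richest cells per gene was added after the data were seen. The ratio step was tested on simulated data. Python 3.11.15, numpy 2.4.6, scipy 1.17.1, pandas 2.3.3 and matplotlib 3.10.9 were used.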

Additional observations from a re-analysis of the deposited data

How the results depend on the processing

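Animal-to-animal spread was not measured, since each group has 1 library. No paired analysis was possible because each group has 1 library and the number 1 only names it.

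The neutrophil share was higher with anti–PD-1 in all 10 alternatives, which all counted the same 7 gate genes. The difference of 7.41 points was 6.67 with a minimum of 200 genes, 8.50 with 2 gate genes, 8.20 with 5 gate genes, 11.3 with the gate on thinned cells, 2.76 with the stricter lineage exclusion, 14.7 with none and 6.36 without cells low in *S100a8* and *S100a9*. Against 217 higher and 362 lower genes, there were 401 and 1172 in the Y-linked sets, 268 and 565 with 2 gate genes, 293 and 217 with median-ratio scaling, 251 and 231 without the lineage exclusion, 256 and 596 without the low-value filter, and 250 and 216 without the 5 richest cells per gene. Higher genes were 37.5% of both, and 25.5%, 57.5%, 52.1% and 53.6% in the Y-linked sets, with median-ratio scaling, without the exclusion and without the 5 richest cells.

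The type I interferon median of 1.85 was 1.26 without the lineage exclusion and 2.19 without the 5 richest cells. The interferon-γ median of 1.59 was 1.99 without those cells, and the NF-kB median of 1.01 was 1.23 with median-ratio scaling. The primary granule median of −2.69 was −6.08 in the Y-linked sets, −1.10 with equal weight per cell, −1.45 with 2 gate genes and −3.75 with a pseudocount of 1. It turned positive without cells low in *S100a8* and *S100a9*, with the stricter exclusion, with the gate on thinned cells, with 5 gate genes and without the 5 richest cells. In that order, the median and *Ctsg* were 0.60, 0.32, 0.45, 0.58 and 0.19, *Elane* 1.07, 1.11, 1.04, 0.94 and 0.86, and *Mpo* 0.77, 0.88, 0.71, 0.83 and 0.91. The Y-linked sets also reversed *Ankrd1* (0.22), *Hba-a2* (1.43), *Ltb4r1* (0.092), *Ly6c2* (−0.39) and *Tnc* (0.92). The stricter exclusion reversed *Hba-a2* (1.36) and *Ngp* (−1.20), its absence *Hba-a2* (1.00), *Ngp* (−0.91) and *Fn1* (0.58), 2 gate genes *Ccl2* (−0.012) and *Hbb-bs* (−2.28), and leaving out the 5 richest cells *Hba-a2* (1.09). *Casp1*, *Hdc*, *Ifitm3*, *Nfkbia*, *Nfkbiz*, *Nlrp3* and *Pim1* kept their direction but fell under 2-fold in at least 1 alternative, *Hdc* lowest with 0.76 without the exclusion. So did *Fabp4*, *Mgp*, *Tagln*, *Prtn3* and *Igfbpl1* on the lower side. Among genes within 2-fold, *Camp*, *Cd3d*, *Col1a1*, *Csf1r*, *Fos*, *Lcn2*, *Ltf*, *Mki67*, *S100a8*, *S100a9* and *Tnf* also changed sign in at least 1 alternative, so no direction is drawn from them. Apart from the construction of each alternative, the cause was not tested.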

Other observations

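Antigen presentation genes were above 0 in 8 of 10 cases, with a median log2 ratio of 0.54, against −0.27 over all genes. Of the 10, 1 was past 2-fold higher, against 3.44% of all genes. *B2m*, the light chain of MHC class I, was at 3404 CPM in PBS and 5533 CPM in anti–PD-1 neutrophils, and *Tap1*, a peptide transporter, had a ratio of 1.44.

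*Col1a1* stood apart from its partner chain *Col1a2* and is named after its values were seen. *Col1a1* was found in 16.6% and 17.3% of thinned neutrophils, against 2.88% and 1.78% of gated T cells. *Col1a2* was found in 4.66% and 1.79% of thinned neutrophils. The paper places the doxycycline-driven shRNA allele downstream of the *Col1a1* locus, and its part in these counts was not tested. *Col1a1* is also among the fibroblast markers and the genes of the stricter lineage exclusion.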
